A study of Physcomitrium patens with 4 samples.

Results

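Abundant transcripts that differed little between libraries were described in protonema, the filamentous stage of the moss Physcomitrium patens. They are the 200 most abundant genes, by mean RPKM (reads scaled by gene length and by library total, as deposited), among genes whose share of the reads stayed within a factor of 2 in every comparison of the design. A gene's share was its reads plus 0.5 divided by the library's reads on all genes. The 4 ratios of this share, red light over dark in each genotype and pubs hy2 over wild type in each light condition, all had to lie above 0.5 and below 2. In addition, less than 10% of a gene's reads could map to several places in any library, and genes under that limit are called singly mapped. Of 32273 genes in the files, 30696 were singly mapped and 17823 met all limits. Of the 17823, 6707 had 0 reads in every library and 10942 had at least 50 reads in all. The members were chosen by measured values, so their small folds and high levels are a description and no test was made of them.

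All cultures were of the ecotype Gransden2004. The tissue label was chloronema, the green filaments of the protonema, and the age label was 10 days, with 3 days of dark growth. Wild type and the double mutant pubs hy2 were each sequenced at time 0 in the dark and again after 1 hour of red light (660 nm, 5 μmol m-2 s-1, 25 °C), which gives 4 groups of 1 library. PUBS and HY2 encode bilin synthases, enzymes of the pathway that makes the light-absorbing pigment of phytochrome, and the labels call the double mutant phytochrome-deficient. Both dark libraries are time 0 samples, so red light and the elapsed hour cannot be told apart. No group was replicated, so every fold below compares single libraries and says nothing of the spread within a condition. RNA was taken in bulk, so fewer cells of a type and less RNA per cell cannot be told apart.

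Phytochrome is a receptor that changes form when it absorbs red light and then alters the transcription of many genes. In green plant tissue the most abundant messenger RNAs usually encode proteins of photosynthesis, protein synthesis and basic metabolism. Transcripts that keep their share of the RNA under a treatment are used as internal references in expression studies. The files give identifiers without gene names, and 0 of the 200 identifiers occur in the RefSeq gene table of the species. No function is therefore assigned to any gene here, the chloronema label was not checked against marker genes, and the levels of PUBS and HY2 are not analysed here.

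The members took a similar part of the reads in each library. The limits on each member bound how far this summed share could differ, so nothing is read from its evenness. The members held 10.8% of 17560593 reads in the wild-type dark library (95% exact binomial interval 10.8% to 10.8%). In wild type after red light they held 10.2% of 24560047 reads (10.2% to 10.2%). In pubs hy2 they held 11.3% of 15098951 reads in the dark (11.3% to 11.3%) and 11.5% of 22975725 reads after red light (11.5% to 11.6%). Here and below an interval covers counting error alone. The share was lowest in wild type after red light and highest in pubs hy2 after red light, but without the most abundant member, Pp1s350_5V6, the highest was pubs hy2 in the dark (10.6%, against 10.4% in pubs hy2 after red light). The next 200 genes that met the same limits held 4.24% to 4.68% of the reads per library. Counted per length, the members made up 18.0% of the summed RPKM in wild type in the dark, 17.2% in wild type after red light, 18.8% in pubs hy2 in the dark and 19.5% in pubs hy2 after red light.

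Levels among the members fell steeply at first and then slowly. Mean RPKM ran from 14786 to 223.5 with a median of 354.4. It was 1000 or more for 10 members, 500 to 1000 for 33, 300 to 500 for 97 and under 300 for 60. Within a library the median RPKM of the members was 338.1 in wild type in the dark, 298.6 in wild type after red light, 389.0 in pubs hy2 in the dark and 376.5 in pubs hy2 after red light. Singly mapped genes that reached 50 reads in a library had a median of 11.9 to 13.2 RPKM. The lowest read number of any member in any library was 346. The counting error (standard error) of a member's log2 fold had a median of 0.02 to 0.03 in the 4 comparisons. At most it was 0.11, in pubs hy2 over wild type in the dark. Of the 200 singly mapped genes with the highest RPKM of a library, members made up 145 in wild type in the dark, 125 in wild type after red light, 137 in pubs hy2 in the dark and 139 in pubs hy2 after red light.

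**Figure D1:**
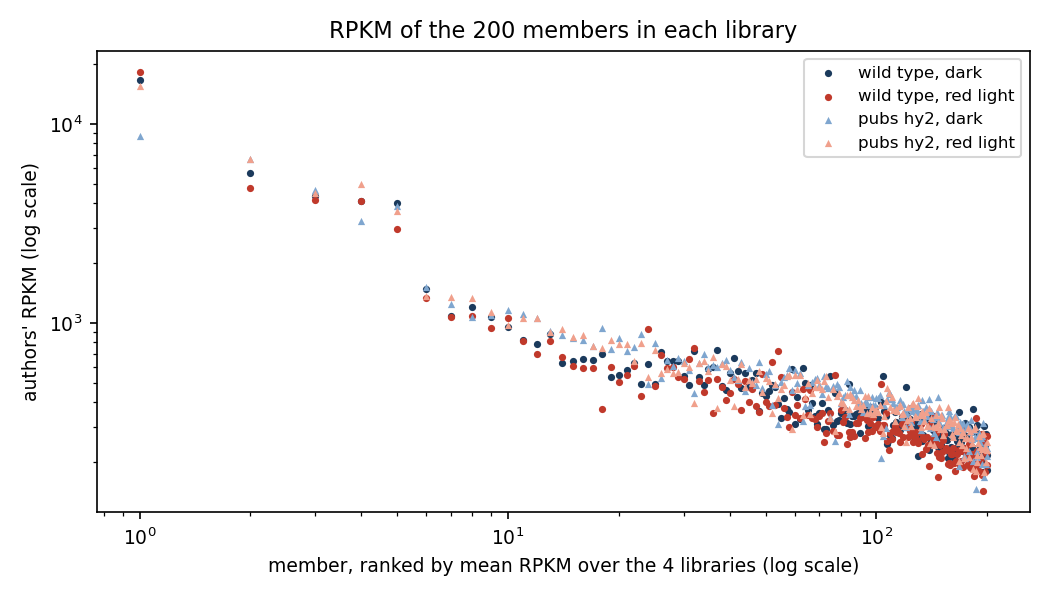
RPKM of each of the 200 members (log scale) in the 4 libraries, with members ordered by mean RPKM (log scale); circles are wild type, triangles pubs hy2, dark and light colours as in the key. The first member has 8727 RPKM or more in every library, and the points of wild type after red light lie low at most ranks.

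The most abundant member, Pp1s350_5V6 (0.674 kb), was also the least even of the leading genes. Its RPKM was 16596 in wild type in the dark, 18323 in wild type after red light, 8727 in pubs hy2 in the dark and 15497 in pubs hy2 after red light. The pubs hy2 dark library alone was low, and the other 3 lay close together. It took 1.26% and 1.41% of all reads in wild type (dark, then red light) and 0.657% and 1.17% in pubs hy2. Its fold of red light over dark was 1.12 in wild type (95% counting interval 1.12 to 1.13) and 1.79 in pubs hy2 (1.77 to 1.80). In the dark its fold of pubs hy2 over wild type was 0.523 (0.519 to 0.527), near the lower limit of the rule.

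Other leading members also had their lowest level in the dark mutant. Pp1s109_232V6 (0.598 kb) had 4085 and 4125 RPKM in wild type (dark, then red light), and 3246 and 4985 RPKM in pubs hy2. Its fold after red light was 1.54 in pubs hy2 (1.52 to 1.56) and 1.03 in wild type (1.02 to 1.04). Pp1s249_62V6 (0.859 kb) had 1207 and 1084 RPKM in wild type, and 1076 and 1340 RPKM in pubs hy2. For this gene the red light library was the lower one in wild type, at a fold of 0.914 (0.898 to 0.931), and the higher one in pubs hy2, at 1.25 (1.23 to 1.28). These 3 genes thus shared a higher level after red light in pubs hy2, with folds from 1.25 to 1.79.

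Several other leading members had a lower level in both wild-type libraries. This direction was not particular to them. In pubs hy2 147 of the 200 members were higher in both light conditions, as were 120 of the next 200 genes by abundance. Pp1s42_251V6 (1.21 kb) had 5689.5 and 4774 RPKM in wild type (dark, then red light), against 6649 and 6667 RPKM in pubs hy2. Pp1s18_121V6 (0.910 kb) had 820.2 and 814.9 RPKM in wild type and 1104 and 1060.1 RPKM in pubs hy2. For Pp1s158_180V6 (1.393 kb) the values were 783.3 and 699.3 RPKM in wild type and 1054 and 1054 RPKM in pubs hy2. The folds of pubs hy2 over wild type for these 3 genes were 1.16, 1.34 and 1.34 in the dark and 1.37, 1.28 and 1.48 in red light, each with a counting interval above 1. Pp1s400_20V6 (0.709 kb) had 1082 and 1070.4 RPKM in wild type and 1241 and 1343 RPKM in pubs hy2, with the same order of genotypes and folds of 1.14 and 1.23. The member medians of the log2 genotype fold were 0.25 (dark) and 0.31 (red light). Pp1s400_20V6 lay below both, at 0.19 and 0.30, and Pp1s42_251V6 below that in the dark, at 0.22. Scaled on the members, an alternative added after seeing the data, log2 genotype folds shift by -0.24 (dark) and -0.31 (red light). Under that scaling these values turn lower in pubs hy2.

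The remaining leading members had folds of pubs hy2 over wild type from 0.903 to 1.21. Pp1s72_43V6 (0.443 kb) had 4005 RPKM in wild type in the dark, 2977 in wild type after red light, and 3850.2 and 3653 in pubs hy2, so wild type after red light was the low library. Pp1s316_6V6 (0.880 kb) had 1068 and 945.8 RPKM in wild type and 1096 and 1139 RPKM in pubs hy2, again lowest in wild type after red light. Pp1s44_277V6 (0.474 kb) had 1475 and 1339.6 RPKM in wild type and 1523 and 1364 RPKM in pubs hy2. It was lower after red light in both genotypes, with folds of 0.925 (0.904 to 0.946) and 0.901 (0.880 to 0.922). Pp1s4_134V6 (1.336 kb) ran in opposite directions, with 957.8 and 1059.6 RPKM in wild type and 1161 and 974.2 RPKM in pubs hy2. Its fold after red light was 1.13 in wild type (1.11 to 1.14) and 0.844 in pubs hy2 (0.830 to 0.857).

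The third most abundant member, Pp1s4_113V6, had the smallest value of all 200 for the largest of its 4 folds. It had 6699 and 9137 reads in wild type (dark, then red light) and 6134 and 9061 reads in pubs hy2, or 4352, 4169, 4660.0 and 4498 RPKM in that order. Its highest share was 1.09 times its lowest, and by that ratio 2 of the genes below were steadier. Its folds after red light were 0.975 in wild type (0.945 to 1.01) and 0.971 in pubs hy2 (0.940 to 1.00). This gene model is 78 bp long, shorter than the 200 to 400 bp fragments selected for sequencing, so its RPKM cannot be set beside that of longer genes in a simple way.

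The 4 members next in that order had levels between 466 and 906 RPKM. Pp1s39_130V6 (0.779 kb) had 514.0 and 465.9 RPKM in wild type and 501.6 and 497.3 RPKM in pubs hy2. Pp1s271_9V6 (0.598 kb) had 879.7 and 815.4 RPKM in wild type and 906.2 and 903.2 RPKM in pubs hy2. Both had their lowest value in wild type after red light. Pp1s57_227V6, also 78 bp long, had 645.8 and 598.6 RPKM in wild type and 608.5 and 560.0 RPKM in pubs hy2. Pp1s179_15V6 (1.00 kb) had 644.1 and 592.2 RPKM in wild type and 648.4 and 586.4 RPKM in pubs hy2, with both red light libraries low. The highest share of these 4 genes exceeded the lowest by a factor of 1.08 to 1.15. They were picked for small folds, so their evenness describes these 4 libraries and does not show how they would vary between cultures.

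**Figure D2:**
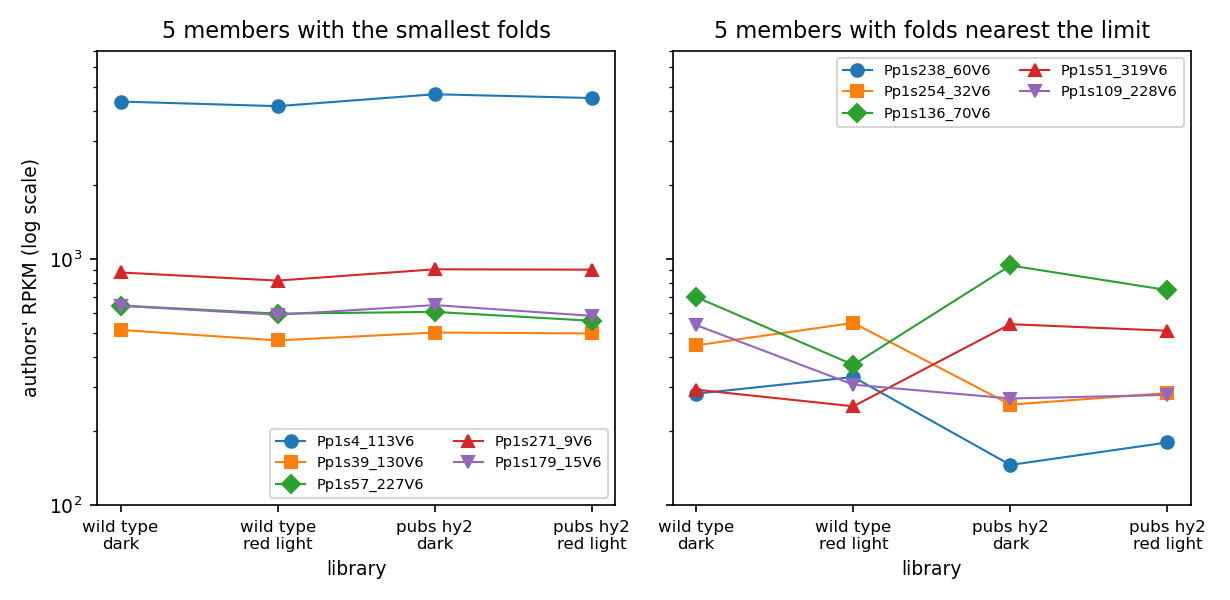
RPKM (log scale) in the 4 libraries for the 5 members with the smallest and the 5 with the largest value of their largest log2 fold; lines join the libraries of 1 gene. The left panel is nearly flat at each level, while in the right panel the genotype fold in one of the light conditions comes near 2 or 0.5.

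At the other end, 5 members came close to a limit. Pp1s109_228V6 (0.291 kb) had 537.6 RPKM in wild type in the dark and 308.0, 270.6 and 279.8 RPKM in the other libraries (wild type red light, pubs hy2 dark, pubs hy2 red light). Only its wild-type dark library was high, and its fold of pubs hy2 over wild type in the dark was 0.501 (0.469 to 0.534). Pp1s51_319V6 (0.624 kb) had 293.9 and 251.6 RPKM in wild type and 542.3 and 510.1 RPKM in pubs hy2, folds of 1.84 (1.76 to 1.91) in the dark and 1.99 (1.92 to 2.07) in red light. Pp1s136_70V6 (1.376 kb) had 698.6 and 370.9 RPKM in wild type and 939.3 and 746.0 RPKM in pubs hy2. It was lowest in wild type after red light, where the fold of pubs hy2 over wild type was 1.98 (1.94 to 2.02). Pp1s254_32V6 (1.433 kb) had 444.9 and 549.0 RPKM in wild type and 255.6 and 284.7 RPKM in pubs hy2. Pp1s238_60V6 (0.755 kb) had 283.1 and 330.7 RPKM in wild type and 145.4 and 179.4 RPKM in pubs hy2. Both were lower in the mutant in both light conditions, with folds from 0.509 to 0.571.

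Just outside the ratio limits, 3 genes at least as abundant as the last member missed by the least. Pp1s11_168V6 had a fold of 0.499 (0.465 to 0.534) for pubs hy2 over wild type in red light. Pp1s53_159V6 had 0.497 (0.491 to 0.503) for the same ratio in the dark, and Pp1s37_124V6 had 0.493 (0.482 to 0.504) for red light over dark in wild type. Each of these 3 counting intervals spans 0.5, so the limit separated them from members by less than the counting error. At the limit of abundance, the last 2 members, Pp1s25_72V6 and Pp1s47_274V6, had mean RPKM of 223.8 and 223.5. The first 2 genes past it, Pp1s38_329V6 and Pp1s43_46V6, had 222.5 and 220.6.

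Across all members, most shares after red light were close to those in the dark. In wild type the median log2 fold of red light over dark was -0.13 (quartiles -0.22 and -0.04, range -0.89 to 0.91), and 163 of 200 members were lower after red light. In pubs hy2 the median was -0.06 (quartiles -0.15 and 0.04, range -0.68 to 0.84), with 128 of 200 lower. The share stayed within 1.2-fold for 156 members in wild type, for 183 in pubs hy2 and for 148 in both. The count in both genotypes was made for members alone, so nothing is read from it. Over members the log2 SD was 0.23 (wild type) and 0.18 (pubs hy2), against a median counting error of 0.03 and 0.02 for a single member. Among singly mapped genes with at least 50 reads, the median log2 fold came to -0.05 (wild type) and 0.02 (pubs hy2). Of these genes 9597 of 17274 were lower after red light in wild type and 8421 of 17471 in pubs hy2. Within 1.2-fold were 8077 (wild type) and 8935 (pubs hy2) of them. Their median counting error was larger than that of the members, at 0.09 (wild type) and 0.10 (pubs hy2). Their counts within 1.2-fold are therefore not like those of the members. Among the next 200 genes by abundance, 143 and 122 were lower, and 143 and 160 lay within 1.2-fold. Scaled on the members, an alternative added after seeing the data, 100 and 101 members were lower.

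A member was counted as past 1.5-fold where its fold was at least that large in either direction and its counting interval excluded 1. In wild type 11 members were past 1.5-fold after red light, 4 higher and 7 lower, where 24.7% of 17274 singly mapped genes with at least 50 reads were past it, 11.0% higher and 13.7% lower. In pubs hy2 it was 4 members, 2 higher and 2 lower, with 18.0% of 17471 genes in the background, 10.8% higher and 7.14% lower. The rule that chose the members bounds these folds, so nothing is read from the difference between members and background. Named after their values were seen, the 4 higher members in wild type were Pp1s2_779V6, Pp1s46_189V6, Pp1s47_154V6 and the 96 bp long Pp1s25_72V6, with folds of 1.88, 1.63, 1.53 and 1.501. Pp1s2_779V6 had 6718 and 17626 reads in wild type (dark, then red light) and 4544 and 9425 in pubs hy2, where its fold was 1.36 (1.32 to 1.41). In pubs hy2 the 2 higher members were Pp1s350_5V6 and Pp1s109_232V6, described above. The 2 lower ones, Pp1s43_118V6 and Pp1s252_2V6, had folds of 0.623 (0.610 to 0.637) and 0.637 (0.623 to 0.653), and in wild type 0.734 (0.721 to 0.747) and 0.782 (0.767 to 0.796).

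Between the genotypes the members differed more widely. The median log2 fold of pubs hy2 over wild type was 0.25 in the dark (quartiles 0.02 and 0.46) and 0.31 in red light (0.07 and 0.56). In the dark 154 of 200 members were higher in pubs hy2, and in red light 161 were. Over members the SD was 0.42 (dark) and 0.41 (red light). For 97 members the largest of the 4 folds was that between genotypes in red light, for 62 that between genotypes in the dark, for 26 that of red light in wild type and for 15 that of red light in pubs hy2. How often each fold was the largest was not counted for other genes. For the background genes the medians were -0.18 (dark) and -0.11 (red light). Of these genes 6900 of 17231 (dark) and 7931 of 17785 (red light) were higher in pubs hy2, and of the next 200 genes by abundance 124 and 142. Wider genotype folds were not particular to the members. In the next 200 genes the SD was 0.455 (dark) and 0.495 (red light) between genotypes. Their red light folds had an SD of 0.271 (wild type) and 0.227 (pubs hy2).

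**Figure D3:**
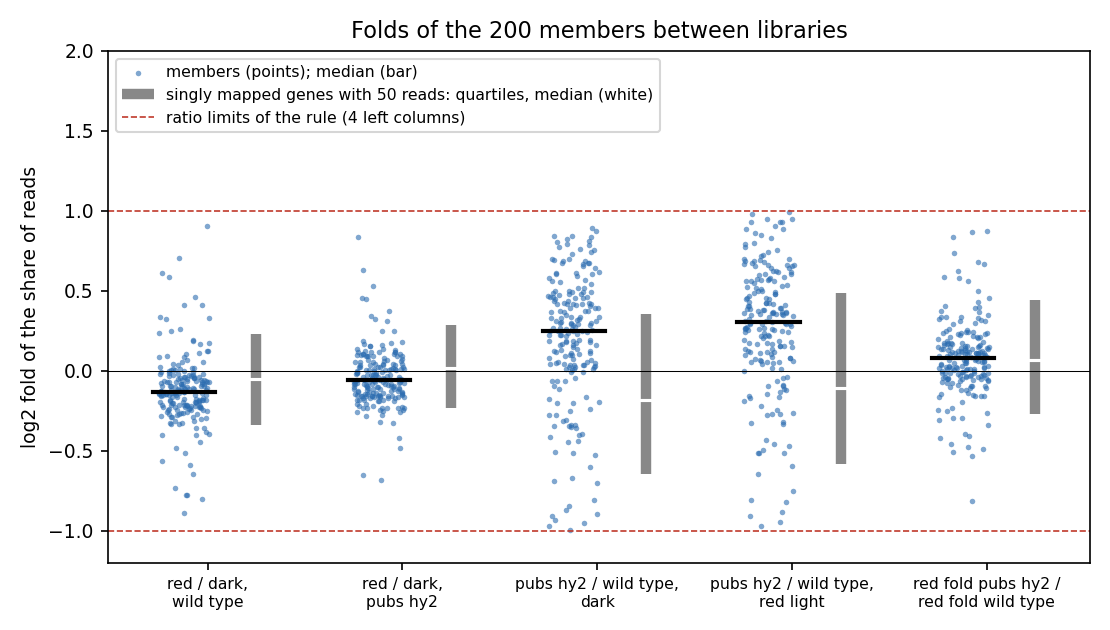
Log2 folds of the 200 members (points, with the median as a black bar) in the 4 comparisons and in the ratio of red light folds, beside the quartiles and median of singly mapped genes with at least 50 reads. Dashed lines mark the limits that chose the members; the genotype folds fill the range between them, and the red light folds cluster near 0.

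By the 1.5-fold rule 45 members differed between genotypes in the dark, 32 higher and 13 lower in pubs hy2, where 46.0% of 17231 singly mapped genes were past 1.5-fold, 18.6% higher and 27.3% lower. In red light it was 51 members, 42 higher and 9 lower, with 46.8% of 17785 genes in the background, 22.1% higher and 24.7% lower. The limits that chose the members bound these folds, so nothing is read from the difference between members and background, here or below. Members past 1.5-fold were 22.5% in the dark and 25.5% in red light. Genes that met the same limits with at least 50 reads had 24.2% and 24.6%, and the next 200 genes by abundance 22.5% and 32.5%. The split of the members depended on the scaling. With TMM (a factor per library from a trimmed mean of gene ratios) it was 47 higher and 10 lower in the dark. With DESeq2's size factors it was 57 and 9 in the dark. In red light it was 55 and 7 with TMM and 56 and 7 with size factors. Scaled on the members themselves, an alternative added after seeing the data, it turned to 5 higher and 24 lower in the dark and 8 higher and 20 lower in red light. Under that scaling the background genes had 14.0% higher and 40.6% lower in the dark, and 15.6% and 40.5% in red light. In both light conditions 25 members exceeded wild type by 1.5-fold or more in the mutant, and 5 fell short of it by as much. Of 17110 singly mapped genes that reached 50 reads in both comparisons, 14.5% were higher and 16.0% lower in both. The 5 lower ones, named after their values were seen, were Pp1s65_188V6, Pp1s76_105V6, Pp1s422_7V6, Pp1s254_32V6 and Pp1s238_60V6. Pp1s65_188V6 (1.064 kb) had 719 and 752 RPKM in wild type and 445 and 397 RPKM in pubs hy2. Pp1s76_105V6 (2.286 kb) had 402 and 494 RPKM in wild type and 208 and 299 RPKM in pubs hy2. Over all members, 130 (65.0%) stayed within 1.5-fold in all 4 comparisons and 39 within 1.2-fold. Within 1.5-fold in all 4 were also 119 of the next 200 genes by abundance. Of the 10942 genes that met the limits with at least 50 reads, 53.6% were. The member count within 1.5-fold was 112 to 139 under the other planned scalings and 154 when scaled on the members. The highest of a member's 4 shares was 1.08 to 2.47 times the lowest, with a median of 1.43. It reached 2 times or more in 12 members, because the rule sets no limit between libraries that differ in both genotype and light. These 12, the range and median of that ratio, and the 39 members within 1.2-fold were not set beside other genes. Nothing is read from them about the members.

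Genotype folds had the same direction in dark and red light for most members. Of 200, 147 were higher in pubs hy2 in both light conditions, 32 were lower in both and 21 changed sign. Scaled on the members, 85 were higher and 83 lower in both. Among the 10942 genes that met the limits and had at least 50 reads, 27.4% were higher and 49.5% lower in both, and among the next 200 genes by abundance 120 and 54 were. The Spearman correlation of the 2 genotype folds over the 200 members was 0.845 and the Pearson correlation 0.829. The red light folds of the genotypes were less alike, with 0.270 (Spearman) and 0.330 (Pearson). Each of these correlations is over genes that share their libraries and is a description only. No library enters both folds of a pair, but the ratio limits trimmed the range of every fold. By level, the order of the members was kept more closely between light conditions than between genotypes: the Spearman correlation of RPKM was 0.928 within wild type and 0.947 within pubs hy2, and 0.706 (dark) and 0.735 (red light) between genotypes.

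**Figure D4:**
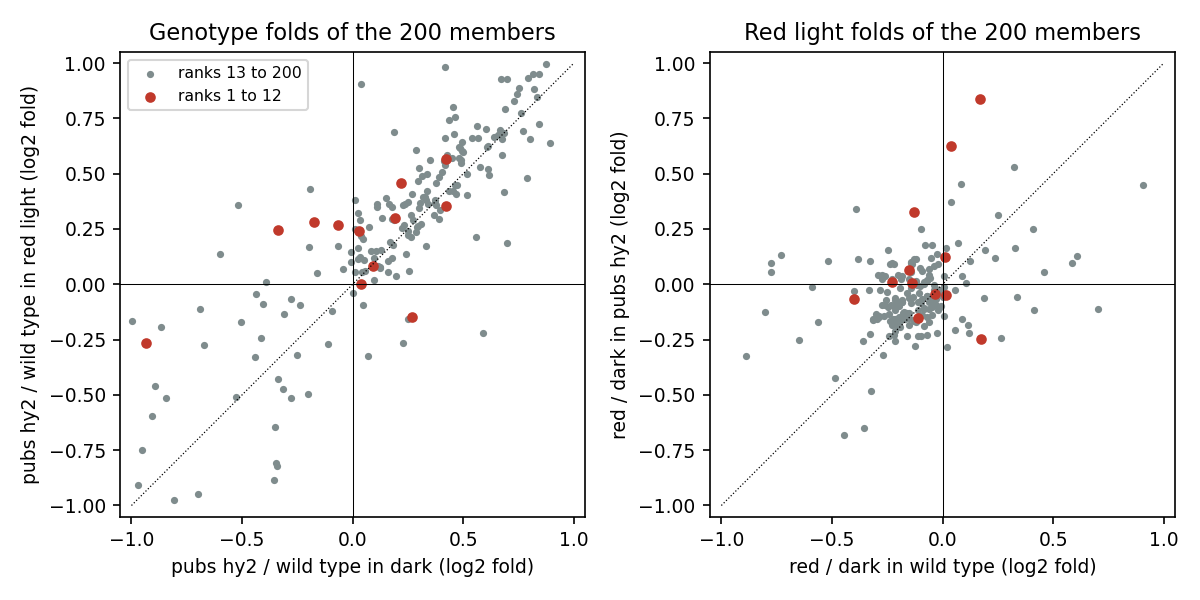
Log2 folds of the 200 members. Left, pubs hy2 over wild type in the dark (horizontal) and in red light (vertical); right, red light over dark in wild type (horizontal) and in pubs hy2 (vertical). Red points are the 12 most abundant members and the dotted line marks equal folds; the left cloud follows that line with most points above 0, and the right cloud gathers just below 0.

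Most members had their lowest share in wild type after red light. The lowest share of the 4 fell in that library for 136 members, for 24 in dark wild type, for 22 in dark pubs hy2 and for 18 in illuminated pubs hy2. The highest share fell in pubs hy2 in the dark for 107 members, in pubs hy2 after red light for 49, in wild type in the dark for 30 and in wild type after red light for 14. Among all 10942 genes that met the limits and had at least 50 reads, 23.6% were lowest in wild type after red light and 18.8% highest in pubs hy2 in the dark. Among the next 200 genes by abundance the numbers were 107 and 80. With TMM scaling 126 members were lowest in wild type after red light, and under the other 3 planned scalings it was 124 to 144. Scaled on the members, it was 48, as that scaling sets their median fold near 1 by construction.

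The red light fold differed little between genotypes for most members. This fold in pubs hy2 divided by the wild-type fold had a median log2 value of 0.08 (quartiles -0.04 and 0.18). This ratio lay within 1.2-fold of 1 for 157 members. The same held for 134 of the next 200 genes by abundance and 7398 of 18654 singly mapped genes. The median counting error of the log2 ratio was 0.15 for the singly mapped genes and 0.04 for the members. The ratio was past 1.5-fold for 9 members (4.5%), 8 higher and 1 lower. Of the 18654 singly mapped genes 26.4% were past it, 16.4% higher and 10.0% lower. Of the genes that met the limits with at least 50 reads 10.7% were, and of the next 200 genes 4.0%. The limits bound both red light folds and so this ratio, and nothing is read from the difference between members and background. The 8 with a higher ratio included Pp1s350_5V6 at 1.59 (1.57 to 1.60) and Pp1s109_232V6 at 1.502 (1.48 to 1.53), whose fold was large in pubs hy2. Some of the others, but not all, had a lower level after red light in wild type and a higher one in pubs hy2. Pp1s200_12V6 (1.745 kb) had 495 and 284 RPKM in wild type and 348 and 369.9 RPKM in pubs hy2. Pp1s12_233V6 (0.207 kb) had 597.4 and 353.6 RPKM in wild type and 617.2 and 673.4 RPKM in pubs hy2. The ratios of these 2 genes were 1.83 (1.77 to 1.895) and 1.82 (1.68 to 1.97). The 1 member with a lower ratio, Pp1s46_189V6 (1.976 kb), had 332 and 532 RPKM in wild type and 503 and 464 RPKM in pubs hy2, a ratio of 0.569 (0.553 to 0.586). These 3 genes were singled out after their values were seen.

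Abundance alone did not fix whether a gene stayed within the limits. Down to the level of the last member there were 288 singly mapped genes, of which 200 met the limits and 88 did not. Of the 88, 63 missed a genotype limit alone, 1 missed a red light limit alone and 24 missed both kinds. In the dark 38 of the 288 were at least 2-fold higher and 27 at least 2-fold lower in pubs hy2, and in red light 36 and 34. The red light limits were missed by 23 genes in wild type, 20 of them higher, and by 4 in pubs hy2, all of them higher. The 88 genes held 10.2%, 9.87%, 8.13% and 8.74% of the reads (wild type dark, wild type red light, pubs hy2 dark, pubs hy2 red light). These are sums over 88 genes and those of the members are over 200, so they do not compare the level per gene. The share of genes within the limits was 56.0% among the 50 most abundant, 72.0% among the next 50, 77.0% among the next 100 and 66.5% among the next 200.

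**Figure D5:**
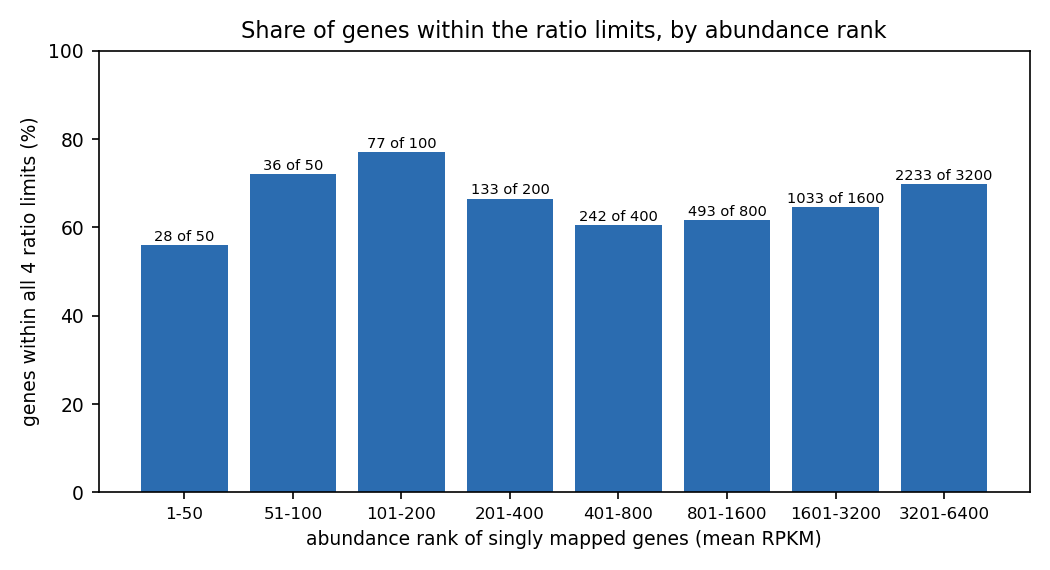
Share of singly mapped genes within all 4 ratio limits (bars, percent of the genes in each range) by abundance rank on mean RPKM; the numbers above the bars are counts of genes. The lowest bar is that of ranks 1 to 50, with 28 of 50 genes.

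The members were short genes. Their median length was 0.818 kb (quartiles 0.680 and 1.17 kb), against 1.75 kb for singly mapped genes with at least 50 reads, 1.27 kb for the 88 abundant genes outside the limits and 0.961 kb for the next 200 genes. RPKM divides by length and so favours short genes at equal reads, and the comparison of lengths is in part a product of the ranking. Only 10 members were longer than 2 kb, the longest being Pp1s58_143V6 at 3.299 kb with 278.6 and 226.5 RPKM in wild type and 211.6 and 216.6 RPKM in pubs hy2. At the short end, 6 members were under 0.2 kb, below the smallest selected fragment. The shortest, at 78 bp, were Pp1s4_113V6, Pp1s118_28V6 and Pp1s57_227V6, and 18 gene models in the files have this length, 7 of them with at least 50 reads in all. Of the members, 177 had 0 multi-mapping reads in every library. The largest share was 6.11%, for Pp1s7_451V6 in pubs hy2 after red light, and this was the 1 member above 1%.

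The identifiers spread the members over 135 scaffold labels, 91 of which held 1 member. The most were 5, on each of 2 labels. For 4 pairs of members no other gene lay between them in the numbering of a scaffold label. In 1 such pair, Pp1s165_39V6 and Pp1s165_40V6, the folds ran side by side: 0.973 and 0.967 for red light in wild type, 0.998 and 0.949 for red light in pubs hy2, 1.17 and 1.19 for genotype in the dark, and 1.205 and 1.17 for genotype in red light. The median folds of all members were 0.913, 0.959, 1.19 and 1.24 in that order. Both genes lay within the quartiles of the members in each comparison, and pairs of members that are not neighbours were not compared. In the other 3 pairs the genotype folds did not run side by side. For Pp1s109_228V6 and Pp1s109_232V6 the genotype folds in the dark were 0.501 and 0.790, and the red light folds in pubs hy2 were 1.04 and 1.54. The genotype folds in the dark were 1.53 and 1.03 for Pp1s38_194V6 and Pp1s38_196V6, and 1.49 and 1.09 for Pp1s91_122V6 and Pp1s91_124V6. The protocol in the labels names no step that keeps the strand, so reads of overlapping neighbours could not be separated, and the positions of these genes were not used here.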

How the data were processed

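Messenger RNA was sequenced in 4 libraries, 1 per group, from poly-A RNA that was fragmented, randomly primed, size-selected and amplified by 18 PCR cycles, per the labels' protocols. The authors deposited estimated counts of reads, 95.4% to 95.6% of them whole numbers per library, and these were rounded for intervals. They also deposited an RPKM value, whose library total exceeded the reads summed over genes by enough that the latter fell short by 10.5% to 12.6%, and, per the file headers, the multi-mapping fraction of each gene's reads. Aligner, build and annotation are not given in the sources used here. Depth was 15098951 to 24560047 reads per library, without molecular identifiers.

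Shares, folds and exact 95% intervals (Clopper-Pearson on the reads of 2 libraries, scaled by library totals) were computed with Python 3.11.15, numpy 2.4.6, pandas 2.3.3 and scipy 1.17.1, and figures with matplotlib 3.10.9. For the ratio of red light folds the interval is a normal one on log2 values, with 0.5 added to reads. TMM factors (edgeR 4.0.16) and size factors (DESeq2 1.42.0, in R 4.3.3) served as alternatives, without any test. The members and the genes named were chosen with earlier results of these data known. Named are the 12 most abundant members, the 5 with the smallest and the 5 with the largest folds, the genes on either side of each limit, the shortest and the longest, and others where marked. Lists by product name were not used, since no identifier was matched to a name. RPKM was raised by 0.01 where it replaced the share.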

Additional observations from a re-analysis of the deposited data

Results flagged for a closer look

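Among the genes named above, several had folds in opposite directions in the 2 genotypes or in the 2 light conditions, with both counting intervals off 1. None of these differences was tested, since no group has a replicate. Some of these genes were themselves named for a large ratio of red light folds. Opposite directions were common among all members: 51 were lower after red light in wild type and higher in pubs hy2, and 16 the reverse. Genotype folds changed sign in 21 members. Of genes that met the limits with at least 50 reads, only 34.6% were lower and 28.8% higher after red light in both genotypes. Such genes with both intervals off 1 were not counted beyond the named ones, so nothing is read from the number of cases. The values below are log2 of the pubs hy2 red light fold divided by the wild-type one. Of the genes whose red light folds had opposite signs, 8 had a positive value: 0.87 (Pp1s200_12V6), 0.86 (Pp1s12_233V6), 0.45 (Pp1s249_62V6), 0.31 (Pp1s58_143V6), 0.31 (Pp1s422_7V6), 0.24 (Pp1s42_251V6), 0.24 (Pp1s47_274V6) and 0.21 (Pp1s316_6V6). The others had -0.25 (Pp1s65_188V6), -0.42 (Pp1s4_134V6), -0.81 (Pp1s46_189V6) and -0.86 (Pp1s11_168V6, which is no member). Genes whose genotype folds had opposite signs in dark and red light had 0.87 (Pp1s200_12V6), 0.59 (Pp1s109_232V6), 0.45 (Pp1s249_62V6), 0.33 (Pp1s72_43V6), -0.42 (Pp1s4_134V6), -0.49 (Pp1s25_72V6) and -0.81 (Pp1s46_189V6). Of these 19 cases, 12 kept opposite signs beyond the interval under all 4 other scalings planned, and 9 of the 12 also when scaled on the members. The 3 that did not were the genotype folds of Pp1s109_232V6 and the red light folds of Pp1s249_62V6 and Pp1s47_274V6. The other 7 cases lost them under at least 1 planned scaling, and Pp1s42_251V6 kept them under 1 of the 4.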

How the results depend on the processing

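Membership depended little on scaling: of the 200 members, 194 to 198 were chosen again under the 4 planned scalings, and 187 when libraries were scaled on the members, an alternative added after seeing the data. Ranking by mean reads kept 127, and limits of 1.5-fold kept 130 and reduced the genes within the limits from 17823 to 5894. Asking for 50 reads in every library reduced them to 10233 and kept all 200 members. The median log2 fold of pubs hy2 over wild type was 0.36, 0.40 and 0.18 in the dark with TMM, DESeq2's size factors and totals leaving out the top 100 genes, and 0.37, 0.38 and 0.26 in red light. These scalings shift every gene's fold, in the dark by 0.11, 0.15 and -0.07. Scaled on the members, the medians were by construction near 0: 0.00070 and -4.4e-05 for red light in wild type and pubs hy2, 0.0094 and -0.0061 for genotype in dark and red light. With that scaling 29 (5 higher, 24 lower) and 28 (8 higher, 20 lower) members differed 1.5-fold between genotypes, which turns the direction of the split. After red light in wild type the split of 4 higher and 7 lower became 2 and 8 with the authors' RPKM and 5 and 5 when scaled on the members. Without Pp1s350_5V6 the members' share of reads was 9.52% and 8.80% in wild type (dark, then red light) and 10.6% and 10.4% in pubs hy2, so the highest library changed. No paired analysis was possible because each group has 1 library, and leaving out a library was not possible for the same reason.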
